A study of Mus musculus with 9 samples.

Results

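The 9 messenger RNAs described here encode parts of the Z-disc and the M-band of the cardiac sarcomere, in a study of mouse hearts. They are Actn2, Ldb3, Myoz2, Tcap, Csrp3, Nebl, Des, Myom1 and Myom2. They were chosen by gene symbol, with no measured value in the rule, and are 9 of 22036 annotated genes in the count table. All 9 were among the 14160 genes that passed the filter on low counts. Bulk RNA of left ventricular tissue was sequenced in 9 libraries, 3 for each of 3 groups, and every mouse was wild type (WT) and carried an adeno-associated virus (AAV). HFD+AAV-BCKDK mice ate HFD, taken to mean a high-fat diet, and had the vector named for BCKDK, the kinase that inhibits breakdown of branched-chain amino acids. HFD+AAV-CON mice ate HFD and had the control vector, and ND+AAV-CON mice ate ND, taken to mean a normal diet, and had the control vector. No group lacked the virus, and no group combined the BCKDK vector with normal diet. The sources do not give the age or sex of the mice, the make-up or length of the diets, or the dose, promoter and target cells of the vectors.

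The sarcomere is the contractile unit of striated muscle, bounded on each side by a Z-disc, where thin actin filaments of neighbouring units are cross-linked by α-actinin, and held in register at its centre by the M-band, where myomesin proteins cross-link thick myosin filaments. Titin spans from Z-disc to M-band, and the intermediate filament desmin ties neighbouring Z-discs to each other and to the cell membrane. Actn2 encodes the cardiac α-actinin, Ldb3 (also called Cypher or ZASP) a PDZ and LIM domain adaptor that binds it, Myoz2 (calsarcin-1) a protein that binds both α-actinin and the phosphatase calcineurin, Tcap telethonin, which caps the end of titin, Csrp3 the muscle LIM protein, and Nebl nebulette, an actin-binding protein of the nebulin family. Myom1 encodes myomesin and Myom2 the related M-protein. On build GRCm38 (mm10), Actn2 lies at chr13:12269426-12340760, Ldb3 at chr14:34526603-34588682, Myoz2 at chr3:123006206-123035015, Csrp3 at chr7:48830398-48848033 and Nebl at chr2:17343909-17731464, all on the minus strand. Tcap lies at chr11:98383811-98384953, Des at chr1:75360329-75368579, Myom1 at chr17:71002633-71126856 and Myom2 at chr8:15057653-15133541 on the plus strand.

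The start regions of 4 of the 5 members that rose with the BCKDK vector under TMM scaling, described further on, are shown because promoters of sarcomere genes are known to hold sites for serum response factor (the CArG box) and MEF2. RefSeq promoter windows on build GRCm38.p6 were found for 7 of the 9 members, and none for Tcap or Myom2. The 250 bases before the start were searched on both strands for a CArG box, a MEF2 site, the GATA site AGATAA, the M-CAT element CATTCC, the E-box CANNTG and TATAAA, and capitals below mark matches to the first 4 of these.
Myoz2 (chr3:123034988-123035237, minus strand): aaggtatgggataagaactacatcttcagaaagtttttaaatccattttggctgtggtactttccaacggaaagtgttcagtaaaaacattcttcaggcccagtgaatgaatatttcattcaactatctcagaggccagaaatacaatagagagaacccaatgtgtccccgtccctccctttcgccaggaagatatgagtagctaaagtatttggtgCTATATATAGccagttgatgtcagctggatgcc
Ldb3 (chr14:34588682-34588931, minus strand): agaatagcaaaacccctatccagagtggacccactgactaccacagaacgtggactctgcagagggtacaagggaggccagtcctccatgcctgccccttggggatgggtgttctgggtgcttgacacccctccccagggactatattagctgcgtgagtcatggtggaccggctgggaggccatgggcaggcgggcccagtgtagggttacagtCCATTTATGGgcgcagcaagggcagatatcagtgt
Csrp3 (chr7:48848052-48848301, minus strand): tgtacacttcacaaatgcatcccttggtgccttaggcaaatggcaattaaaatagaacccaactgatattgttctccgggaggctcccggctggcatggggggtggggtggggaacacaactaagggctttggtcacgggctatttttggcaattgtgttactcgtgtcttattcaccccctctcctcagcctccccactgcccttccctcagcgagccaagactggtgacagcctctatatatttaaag
Myom1 (chr17:71019307-71019520, plus strand): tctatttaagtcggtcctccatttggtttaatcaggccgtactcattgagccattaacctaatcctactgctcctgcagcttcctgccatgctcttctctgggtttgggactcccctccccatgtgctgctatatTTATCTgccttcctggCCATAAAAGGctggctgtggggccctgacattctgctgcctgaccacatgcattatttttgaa
Each runs 5′ to 3′ on the strand of its gene. The Myom1 window lies at an alternative start inside the annotated gene, and its sequence stops before 36 bases that belong to an annotated exon. Positions are counted from the RefSeq start. The last 28 bases of the Myoz2 window and the last 1 of the Ldb3 window lie in an annotated GENCODE exon. A MEF2 match began 33 bases before the Myoz2 start and ran into those exon bases, and CArG matches began 35 bases before the Ldb3 start and 99 bases before the Myom1 start. A GATA match, on the other strand, began 115 bases before the Myom1 start and did not overlap the CArG box. Csrp3 held none of the 4 in the window shown. Actn2 and Des also held none, and the windows of Nebl held GATA, M-CAT and CArG matches. No member window held TATAAA. Over 32851 windows of the same length, 1.47% held a CArG box, 2.92% a MEF2 site, 9.99% AGATAA, 12.6% CATTCC, 66.2% an E-box and 12.4% TATAAA. Matches describe letters and do not show that a factor binds.

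Annotated genes received between 32803233 and 45483044 counts per library. Mitochondrially encoded RNAs took 45.0% to 47.6% of these in HFD+AAV-BCKDK libraries, 26.1%, 39.9% and 33.2% in HFD+AAV-CON libraries and 42.1% to 45.7% in ND+AAV-CON libraries. The trimmed mean of M-values (TMM) factor, which scales a library so that most genes do not change, was 1.42, 1.03 and 1.22 in HFD+AAV-CON and 0.863 to 0.956 in the other 6 libraries. TMM and plain total counts therefore place the HFD+AAV-CON libraries differently, and members are given under both. HFD+AAV-CON replicate 3 lay between its other replicates for 64.2% of genes and for 8 of the 9 members, against 14.9% to 37.7% of genes for the other 8 libraries, and 1.02% of its counts lay in unnamed loci, against 4.75% to 6.01% in the others. Whether it is an independent sample cannot be told from the counts, so n = 3 in HFD+AAV-CON rests on the label, and results are also given without it. Bckdk itself had 111, 126 and 119.9 CPM (counts scaled to library size, TMM) in HFD+AAV-BCKDK, 37.1, 65.0 and 49.4 CPM in HFD+AAV-CON and 78.6, 70.3 and 70.6 CPM in ND+AAV-CON. The log2 fold change of HFD+AAV-BCKDK against HFD+AAV-CON was 1.24 (SE 0.17, adjusted p = 0.0016), or 0.82 with total-count scaling (adjusted p = 0.0011). HFD+AAV-CON was itself below ND+AAV-CON with TMM (-0.54, adjusted p = 0.0300), and not called with total counts (-0.18, adjusted p = 0.188). HFD+AAV-BCKDK against ND+AAV-CON gave 0.70 with TMM, not called (adjusted p = 0.0700), and 0.64 with total counts (adjusted p = 0.0238). The tissue held cardiomyocyte markers in every library, while the skeletal myosin Myh1 had no count, Myh2 and Myh4 stayed at or below 0.0707 CPM, and the atrial genes Myl7 and Sln at or below 0.328 CPM. Other genes of the 14 skeletal muscle markers were present, with Mybpc2 at 4.70 to 12.3 CPM, Casq1 at 1.30 to 9.15 CPM and Tnnt3 at up to 2.29 CPM. The list also holds Ckm, which heart muscle expresses, and summed to 1392 to 1538 CPM in HFD+AAV-BCKDK, 571 to 1302 CPM in HFD+AAV-CON and 1751 to 2100 CPM in ND+AAV-CON. Other atrial markers were present too, and 7 of the 9 on that list passed the filter on low counts. With TMM the atrial list summed to 111 to 227 CPM in HFD+AAV-BCKDK, 333 to 1524 CPM in HFD+AAV-CON and 139 to 263 CPM in ND+AAV-CON. In bulk tissue, fewer cardiomyocytes and less RNA per cardiomyocyte cannot be told apart.

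Levels between genes were compared per length, as TPM (length-scaled transcript abundance) computed from the counts and the merged exon length of each gene. Tcap had the highest mean in every group, at 902 ± 215 TPM in HFD+AAV-BCKDK, 979 ± 81.7 TPM in HFD+AAV-CON and 1066 ± 172 TPM in ND+AAV-CON (SD, n = 3 each). Csrp3 and Des came next, with Csrp3 above Des in HFD+AAV-BCKDK (549.6 ± 16.1 and 483 ± 32.0 TPM) and below it in HFD+AAV-CON (617 ± 70.3 and 796 ± 207 TPM) and ND+AAV-CON (521 ± 24.5 and 588 ± 63.8 TPM). Their ranges overlapped in both control-vector groups but not in HFD+AAV-BCKDK. Actn2 followed at 347 ± 22.3 TPM in HFD+AAV-BCKDK, 448 ± 55.2 TPM in HFD+AAV-CON and 398 ± 30.4 TPM in ND+AAV-CON, then Myoz2 at 307 ± 18.3, 328 ± 24.0 and 353 ± 26.8 TPM in the same groups, and Ldb3 at 199 ± 3.67, 218 ± 14.5 and 185 ± 8.90 TPM. Actn2 stood above Myoz2 in each of the 9 libraries, although their ranges overlapped in HFD+AAV-BCKDK and ND+AAV-CON. The M-band genes were lower. Myom1 stood at 76.2 ± 2.90 TPM and Myom2 at 60.6 ± 6.81 TPM in HFD+AAV-BCKDK. In HFD+AAV-CON they stood at 92.7 ± 14.9 and 94.6 ± 28.1 TPM, and in ND+AAV-CON at 74.9 ± 0.523 and 90.8 ± 10.1 TPM. Per length, Myom1 was thus the higher of the pair in all HFD+AAV-BCKDK libraries, Myom2 in all ND+AAV-CON libraries, and neither in HFD+AAV-CON, where Myom2 was higher in 1 of 3. This order rests on the exon lengths, and in read counts Myom2 to Myom1 was 1.16, 0.969 and 0.952 in ND+AAV-CON. Nebl was the lowest member, at 13.1 ± 0.733, 17.3 ± 3.53 and 14.5 ± 0.713 TPM in HFD+AAV-BCKDK, HFD+AAV-CON and ND+AAV-CON. Gene-level counts do not separate isoforms, and the Nebl and Ldb3 loci are annotated with 13 and 8 transcripts.

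The effect of diet under the control vector was read from HFD+AAV-CON against ND+AAV-CON. With TMM scaling, Myoz2, Tcap, Myom2, Actn2, Nebl and Myom1 fell, 6 of 9 members, and none rose, where 43.3% of all genes tested were called and 20.6% fell. With total-count scaling Myoz2 fell and the other 8 were not called, and 5 of the 9 fold changes were above 0. All 9 members had every HFD+AAV-CON library below every ND+AAV-CON library on the TMM scale, as did 27.1% of all genes, while 28.2% had every library above and 55.3% did not overlap in either direction. With total counts Myoz2 and Tcap had all HFD+AAV-CON libraries lower, where 56.4% of genes did not overlap, 10.1% lower and 46.3% higher. The median fold change of the 9 was -0.35 on the log2 TMM scale, beside -0.00179 for all genes, and 0.046 with total counts, beside 0.40.

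**Figure D1:**
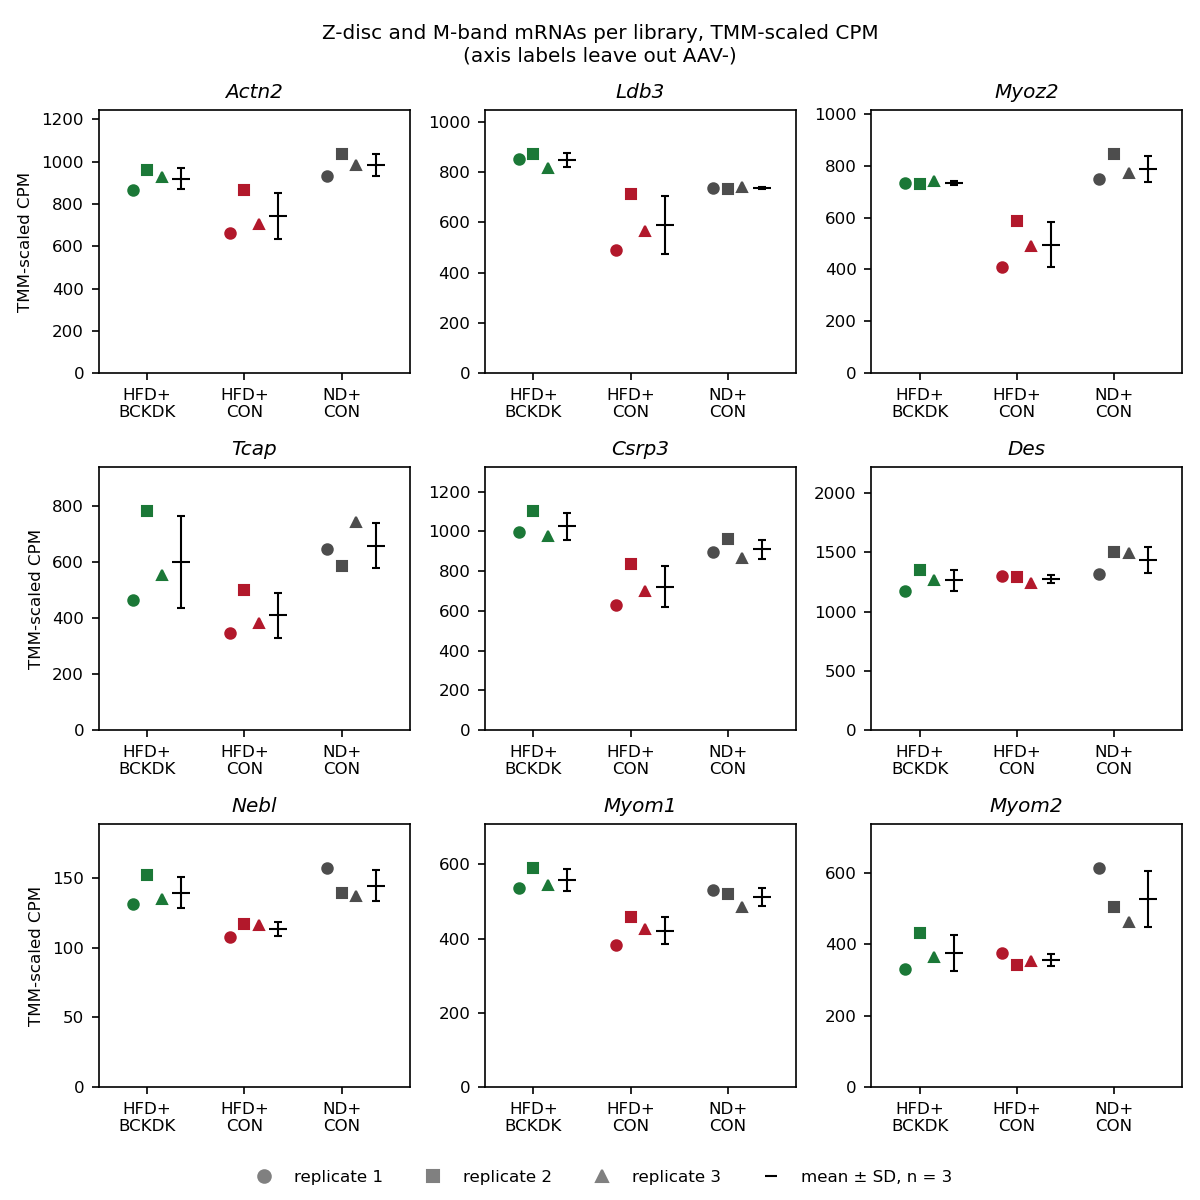
CPM with TMM scaling of the 9 Z-disc and M-band mRNAs in each library, in panels from 0, with mean ± SD over 3 libraries. HFD+AAV-CON lies below ND+AAV-CON in every panel on this scale, while with total-count scaling the groups overlap for 7 of 9; Myom2 stays low in HFD+AAV-BCKDK.

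Among the Z-disc genes, the calcineurin-binding Myoz2 had 411, 587 and 489.8 CPM in HFD+AAV-CON replicates 1 to 3, against 748, 844 and 773 CPM in ND+AAV-CON (fold change -0.67 on the log2 scale, SE 0.13, adjusted p = 0.0041 by edgeR's quasi-likelihood test with Benjamini-Hochberg adjustment, as for all adjusted p here). The lowest ND+AAV-CON library stood well above the highest HFD+AAV-CON library. Tcap, the titin cap, had 348, 501 and 382 CPM in HFD+AAV-CON and 645, 584 and 743 CPM in ND+AAV-CON (-0.68, SE 0.21, adjusted p = 0.0256). Actn2, the α-actinin itself, had 661, 868 and 705 CPM in HFD+AAV-CON and 932, 1036 and 985 CPM in ND+AAV-CON (-0.40, SE 0.12, adjusted p = 0.0263). HFD+AAV-CON replicate 2 was the highest of its group for each of these 3 genes. Nebl, the nebulette gene, had 108, 117 and 116 CPM in HFD+AAV-CON and 157, 139 and 137 CPM in ND+AAV-CON (-0.35, SE 0.09, adjusted p = 0.0142). The adaptor genes Ldb3 and Csrp3 did not pass the test. Ldb3 differed by -0.32 (SE 0.13, adjusted p = 0.0789), with 489, 714 and 564 CPM in HFD+AAV-CON and 736, 733 and 740.4 CPM in ND+AAV-CON, and Csrp3 by -0.33 (SE 0.12, adjusted p = 0.0548), with 632, 835 and 700.1 CPM in HFD+AAV-CON and 898, 962 and 868 CPM in ND+AAV-CON. The ND+AAV-CON libraries of Ldb3 were nearly level, and its spread came from HFD+AAV-CON. Des, whose product links Z-discs to each other, had 1305, 1289.9 and 1242 CPM in HFD+AAV-CON and 1314, 1503 and 1496 CPM in ND+AAV-CON (-0.17, SE 0.11, adjusted p = 0.237).

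Both M-band genes fell on the TMM scale. Myom2 had 376, 341 and 351 CPM in HFD+AAV-CON and 613, 505 and 461 CPM in ND+AAV-CON (-0.56, SE 0.14, adjusted p = 0.0097). Myom1 had 383, 457 and 425 CPM in HFD+AAV-CON and 530.3, 521 and 484 CPM in ND+AAV-CON (-0.28, SE 0.10, adjusted p = 0.0464). The HFD+AAV-CON libraries of Myom2 lay close together, at 356 ± 17.6 CPM (SD, n = 3), and those of ND+AAV-CON were spread, at 526 ± 78.4 CPM. Myom1 shares 207 of its 10459 exon bases with Myl12a on the opposite strand, and the sources do not say whether counting used strand. The call of Myom1 was lost in most of the alternatives run, and without any 1 library other than HFD+AAV-CON replicate 2, with adjusted p from 0.0640 without HFD+AAV-BCKDK replicate 2 to 0.127 without ND+AAV-CON replicate 1.

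With total-count scaling the diet comparison looked different for most members, and the median of all genes moved to 0.40 on the log2 scale. On that scale 48.9% of all genes were called, 42.3% rising and 6.60% falling, against 22.7% rising and 20.6% falling with TMM. Myoz2 had 582, 602 and 599.6 CPM of total counts in HFD+AAV-CON and 679.6, 774 and 739 CPM in ND+AAV-CON and fell (-0.30, SE 0.08, adjusted p = 0.0162). Actn2 came to 937, 889.99 and 864 CPM in HFD+AAV-CON and 847, 949 and 941 CPM in ND+AAV-CON, an overlap (-0.02, 95% interval -0.22 to 0.17, adjusted p = 0.831). Des had 1849.95, 1323 and 1521 CPM in HFD+AAV-CON and 1193, 1377 and 1429.5 CPM in ND+AAV-CON (0.23, SE 0.13, adjusted p = 0.158). Here the HFD+AAV-CON libraries of Des were spread and replicate 1 was the highest, while on the TMM scale they were nearly level. Tcap (-0.31, adjusted p = 0.147) and Myom2 (-0.15, adjusted p = 0.443) kept a negative sign, and Ldb3 (0.048), Csrp3 (0.046), Nebl (0.047) and Myom1 (0.11) did not. A change of scaling shifts all fold changes by nearly the same amount. A member's place among all 14160 fold changes is thus nearly fixed and is no check on the scaling. Myoz2 stood at percentile 12.1 with TMM and 11.9 with total counts, Tcap at 11.8 and 11.5, Myom2 at 15.9 and 17.1, Actn2 at 23.1 and 22.5, and Des, the highest member, at 37.8 and 38.2. With TMM, 3 members were called without ND+AAV-CON replicate 1 or 3 or HFD+AAV-CON replicate 1 or 3, where 4812, 5143, 4435 and 4050 of all genes were called in that order, and 8 without HFD+AAV-CON replicate 2, where 7325 of 14403 were, against 6134 of 14160 with all libraries. With total counts none was called without ND+AAV-CON replicate 2 or 3 or HFD+AAV-CON replicate 3, and without HFD+AAV-CON replicate 2 1 rose and 1 fell.

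**Figure D2:**
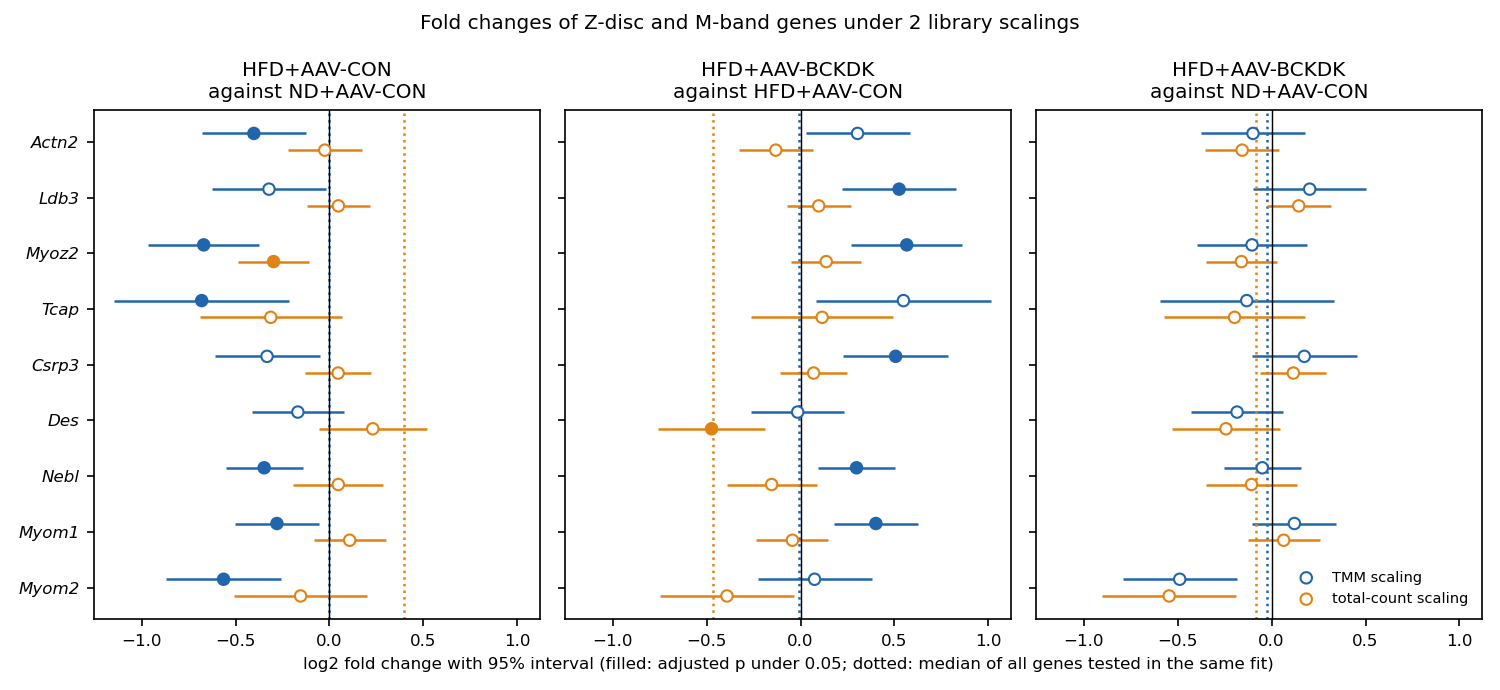
Log2 fold changes of the 9 genes with 95% intervals under TMM scaling (blue) and total-count scaling (orange) in the 3 comparisons, filled where the adjusted p was under 0.05, with dotted lines at the median of all 14160 genes. Under TMM 6 genes fell in the left panel and 5 rose in the middle panel, and under total counts Myoz2 fell in the left and Des in the middle.

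HFD+AAV-BCKDK against HFD+AAV-CON compared the vectors on one diet. With TMM scaling Myoz2, Ldb3, Csrp3, Myom1 and Nebl rose, 5 of 9 members, and none fell, where 38.2% of all genes were called and 17.3% rose. With total-count scaling none rose and Des fell. The median of the 9 was 0.40 with TMM, beside -0.01 for all genes, and -0.043 with total counts, beside -0.47. This comparison shares its HFD+AAV-CON libraries with the diet comparison, so opposite signs in the pair are not independent results.

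On the TMM scale Myoz2 had 732, 728 and 741 CPM in HFD+AAV-BCKDK, against 411, 587 and 489.8 CPM in HFD+AAV-CON (0.57, SE 0.13, adjusted p = 0.0113). The HFD+AAV-BCKDK libraries differed little among themselves. Ldb3 had 854, 872 and 818 CPM in HFD+AAV-BCKDK and 489, 714 and 564 CPM in HFD+AAV-CON (0.52, SE 0.13, adjusted p = 0.0162), and Csrp3 had 997, 1103 and 978 CPM in HFD+AAV-BCKDK and 632, 835 and 700.1 CPM in HFD+AAV-CON (0.51, SE 0.12, adjusted p = 0.0139). Both adaptor genes, which had not passed the test for diet, had all HFD+AAV-BCKDK libraries above all HFD+AAV-CON libraries. Nebl had 131, 153 and 135 CPM in HFD+AAV-BCKDK and 108, 117 and 116 CPM in HFD+AAV-CON (0.30, SE 0.09, adjusted p = 0.0300). Myom1 had 535, 590.4 and 545 CPM in HFD+AAV-BCKDK and 383, 457 and 425 CPM in HFD+AAV-CON (0.40, SE 0.10, adjusted p = 0.0146). These 5 genes are the ones whose groups did not overlap, which 24.0% of all genes showed in that direction and 51.2% in either. The other 4 did not pass. Actn2 differed by 0.30 (SE 0.12, adjusted p = 0.0778), with HFD+AAV-BCKDK replicate 1, at 865 CPM, just under HFD+AAV-CON replicate 2, at 868 CPM. Tcap differed by 0.55 (SE 0.21, adjusted p = 0.0618), with 463, 781 and 555 CPM in HFD+AAV-BCKDK and 348, 501 and 382 CPM in HFD+AAV-CON, and replicate 2 was the highest in both groups. Des, at 1178, 1351 and 1268 CPM in HFD+AAV-BCKDK and 1305, 1289.9 and 1242 CPM in HFD+AAV-CON, differed by -0.02 (95% interval -0.26 to 0.23). Myom2, at 329.7, 431 and 364 CPM in HFD+AAV-BCKDK and 376, 341 and 351 CPM in HFD+AAV-CON, differed by 0.07 (95% interval -0.23 to 0.38). Myom1 passed the test and Myom2 did not, which by itself does not show that they differed.

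With total-count scaling 51.3% of all genes were called, 48.5% falling and 2.81% rising. Des had 1041, 1165 and 1174 CPM of total counts in HFD+AAV-BCKDK, against 1849.95, 1323 and 1521 CPM in HFD+AAV-CON, and fell (-0.47, SE 0.13, adjusted p = 0.0135), close to the median of all genes on that scale. Ldb3, at 754, 752 and 758 CPM in HFD+AAV-BCKDK and 693, 733 and 691 CPM in HFD+AAV-CON, and Myoz2, at 647, 628 and 686 CPM in HFD+AAV-BCKDK and 582, 602 and 599.6 CPM in HFD+AAV-CON, had groups that did not overlap, yet their fold changes of 0.10 and 0.14 did not pass (adjusted p = 0.303 and 0.192). They were the 2 members with all HFD+AAV-BCKDK libraries higher, as 5.22% of genes were, and Actn2 and Des had all lower, as 52.7% were, with 58.0% not overlapping in either direction. Myom2 differed by -0.39 (adjusted p = 0.0625). In the order of all fold changes, which scaling can hardly alter, Myoz2 stood at percentile 87.9 with TMM and 88.0 with total counts. Ldb3 stood at 86.4 and 86.5, Csrp3 at 85.5 and 85.3, and Des at 49.6 and 49.5. With TMM, 1 member was called without HFD+AAV-BCKDK replicate 2, where 3403 of 14427 genes were called, 2 without HFD+AAV-CON replicate 3, where 2847 of 14325 were, and 7 without HFD+AAV-CON replicate 2, where 6978 of 14403 were, against 5410 of 14160 with all libraries. With total counts none was called without HFD+AAV-BCKDK replicate 1 and 3 without HFD+AAV-CON replicate 2.

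**Figure D3:**
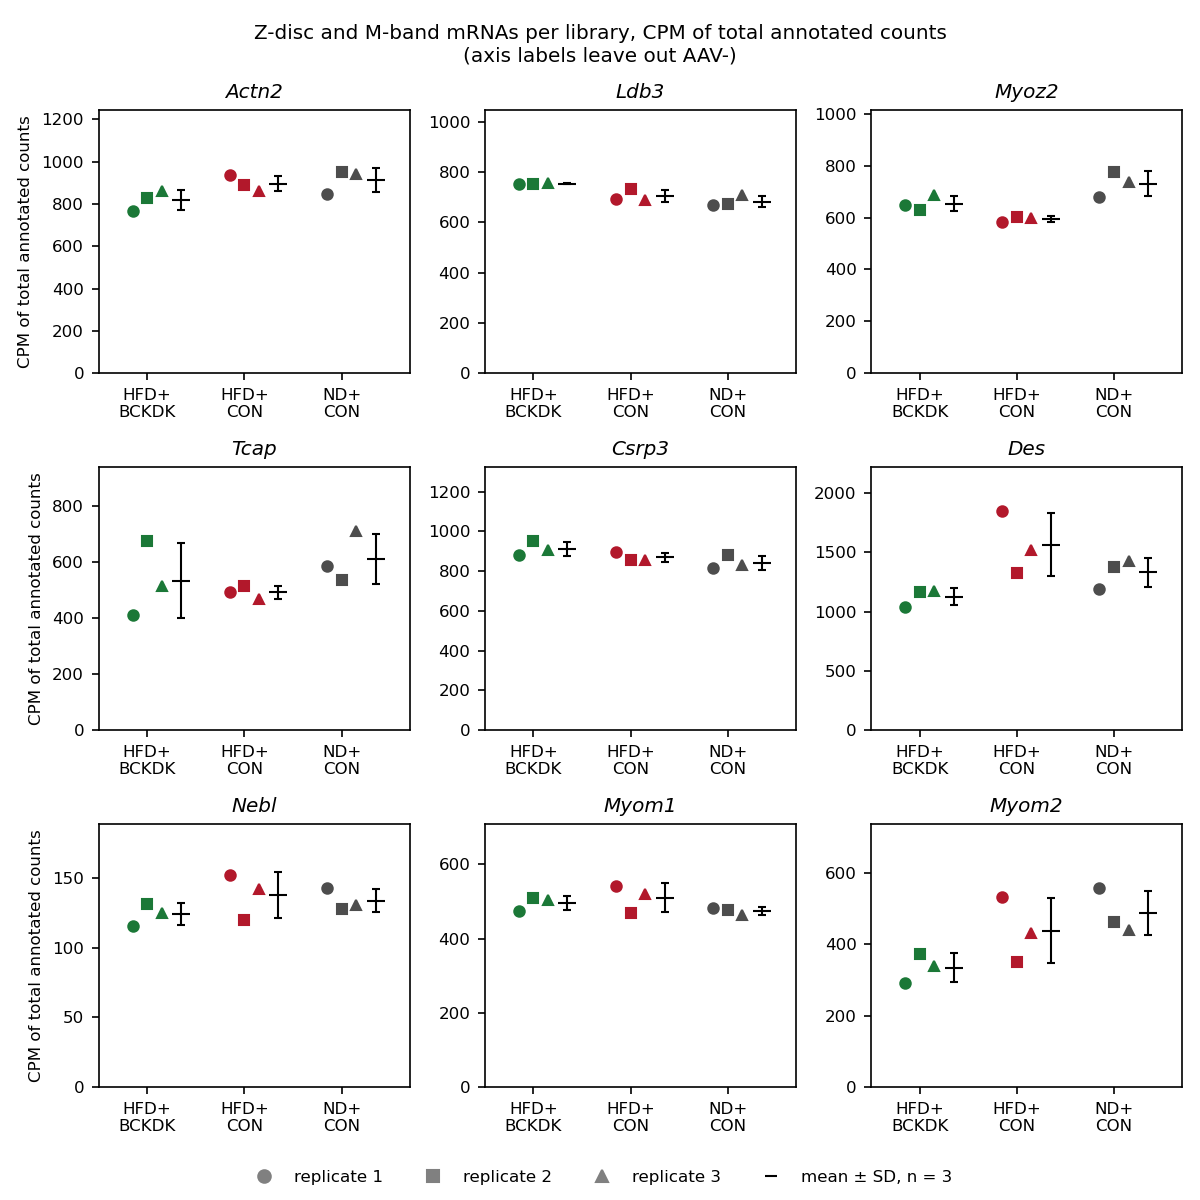
CPM of total annotated counts of the same 9 mRNAs in each library, in panels from 0, with mean ± SD over 3 libraries. HFD+AAV-CON values of Actn2, Csrp3 and Ldb3 lie near those of the other groups, Myoz2 lies below ND+AAV-CON in all 3 libraries, and Des is spread within HFD+AAV-CON.

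Set against normal diet, HFD+AAV-BCKDK differed in diet and vector together. None of the 9 members was called with either scaling, where 2.45% of all genes were called with TMM, 1.18% rising and 1.27% falling, and 0.960% with total counts. At an unadjusted p under 0.05 only Myom2 passed, under both scalings. Myom2 had 329.7, 431 and 364 CPM with TMM in HFD+AAV-BCKDK, against 613, 505 and 461 CPM in ND+AAV-CON (-0.49, SE 0.14, adjusted p = 0.103), and with total counts 291, 372 and 337 CPM in HFD+AAV-BCKDK and 557, 463 and 441 CPM in ND+AAV-CON (-0.55, SE 0.16, adjusted p = 0.164). Every HFD+AAV-BCKDK library lay below every ND+AAV-CON library on both scales. DESeq2 called it (-0.47, adjusted p = 0.0163), the only member it called here, and limma-voom did not (adjusted p = 0.107). With total counts 1 member was called without HFD+AAV-CON replicate 2. Over the alternatives, DESeq2 included, the adjusted p of Myom2 ran from 0.0163, the DESeq2 value, to 0.802 and its fold change from -0.60 to -0.37. No fit in these ranges but DESeq2 called it. These ranges leave out the total-count fits with 1 library left out. Myoz2 was lower in all HFD+AAV-BCKDK libraries with TMM by a small amount (-0.10, SE 0.13), and Ldb3 (0.20, SE 0.13), Csrp3 (0.17, SE 0.12) and Myom1 (0.12, SE 0.10) were higher in all. Of all genes 12.6% were higher and 15.1% lower in this way, 27.7% in all. With total counts Ldb3 was higher in all HFD+AAV-BCKDK libraries and Des and Myom2 lower, where 8.06% of genes were higher and 19.2% lower, 27.2% in all. With TMM the 95% intervals of the other 8 members lay between -0.60 and 0.50, which bounds the difference at this depth and does not show that the groups were alike.

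Ratios of counts within a library do not depend on how libraries are scaled. Each member was set against Actn2 and Myom2 against Myom1, giving 9 ratios in each of 3 comparisons. In HFD+AAV-CON against ND+AAV-CON only 1 ratio did not overlap, that of Myoz2, while HFD+AAV-BCKDK did not overlap HFD+AAV-CON in 5 ratios and ND+AAV-CON in 6. Each such ratio has an exact two-sided permutation p of 0.1, the smallest that 3 against 3 allows. After Benjamini-Hochberg adjustment over 27 tests this p is 0.225, so none passes. How often ratios of other genes to Actn2 fail to overlap was not computed, so the counts of 1, 5 and 6 have no background share. All ratios but that of Myom2 to Myom1 share Actn2 as denominator and are not independent. Whether the 3 comparisons differ in these counts was not tested.

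Myoz2 to Actn2 was 0.621, 0.676 and 0.694 in HFD+AAV-CON, against 0.802, 0.815 and 0.785 in ND+AAV-CON (log2 difference -0.27). In HFD+AAV-BCKDK it was 0.846, 0.757 and 0.797, above HFD+AAV-CON (0.27) and overlapping ND+AAV-CON (-0.00306). Of the 9 ratios this is the one where HFD+AAV-CON stood below both other groups in every library. Ldb3 to Actn2 was 0.987, 0.906 and 0.880 in HFD+AAV-BCKDK, 0.740, 0.823 and 0.800 in HFD+AAV-CON, against 0.790, 0.707 and 0.752 in ND+AAV-CON. Csrp3 to Actn2 was 1.15, 1.15 and 1.05 in HFD+AAV-BCKDK, 0.956, 0.963 and 0.992 in HFD+AAV-CON, against 0.963, 0.929 and 0.881 in ND+AAV-CON. Both adaptor ratios were highest in HFD+AAV-BCKDK, above each control-vector group in every library, with log2 differences of 0.23 and 0.30 for Ldb3 and 0.20 and 0.27 for Csrp3 against HFD+AAV-CON and ND+AAV-CON. The control-vector groups overlapped for both. These orders rest in part on Actn2 as the denominator. Per count of the cardiomyocyte markers, HFD+AAV-BCKDK overlapped HFD+AAV-CON for Ldb3 (log2 difference -0.12), Csrp3 (-0.15) and Myoz2 (-0.078). The sign of all 3 differences turned. Against ND+AAV-CON, Ldb3 (0.28) and Csrp3 (0.25) stayed higher in every HFD+AAV-BCKDK library on that measure. HFD+AAV-CON was then also above ND+AAV-CON in every library for Ldb3 (0.40) and Csrp3 (0.40). For Myoz2 HFD+AAV-CON overlapped ND+AAV-CON (0.057), so its lower ratio with diet did not hold there. Des to Actn2 was 1.36, 1.40 and 1.36 in HFD+AAV-BCKDK, 1.97, 1.49 and 1.76 in HFD+AAV-CON, against 1.41, 1.45 and 1.52 in ND+AAV-CON. HFD+AAV-BCKDK lay below HFD+AAV-CON (-0.33) and, by a narrow margin, below ND+AAV-CON (-0.084). Per count of the cardiomyocyte markers, Des in HFD+AAV-BCKDK overlapped ND+AAV-CON (-0.10). HFD+AAV-CON replicate 2 brought that group into overlap with ND+AAV-CON.

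Of the 9 ratios, that of the M-band pair had the largest log2 difference between HFD+AAV-BCKDK and ND+AAV-CON. Myom2 to Myom1 was 0.616, 0.730 and 0.669 in HFD+AAV-BCKDK, 0.981, 0.747 and 0.827 in HFD+AAV-CON, against 1.16, 0.969 and 0.952 in ND+AAV-CON. Every HFD+AAV-BCKDK library lay below every library of the other groups, by -0.34 on the log2 scale against HFD+AAV-CON and by -0.61 against ND+AAV-CON. HFD+AAV-CON and ND+AAV-CON overlapped (-0.27, exact permutation p = 0.3). Against Actn2, Myom1 was higher (0.22) and Myom2 lower (-0.39) in all HFD+AAV-BCKDK libraries than in all ND+AAV-CON libraries. Nebl to Actn2 and Tcap to Actn2 overlapped in all 3 comparisons.

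**Figure D4:**
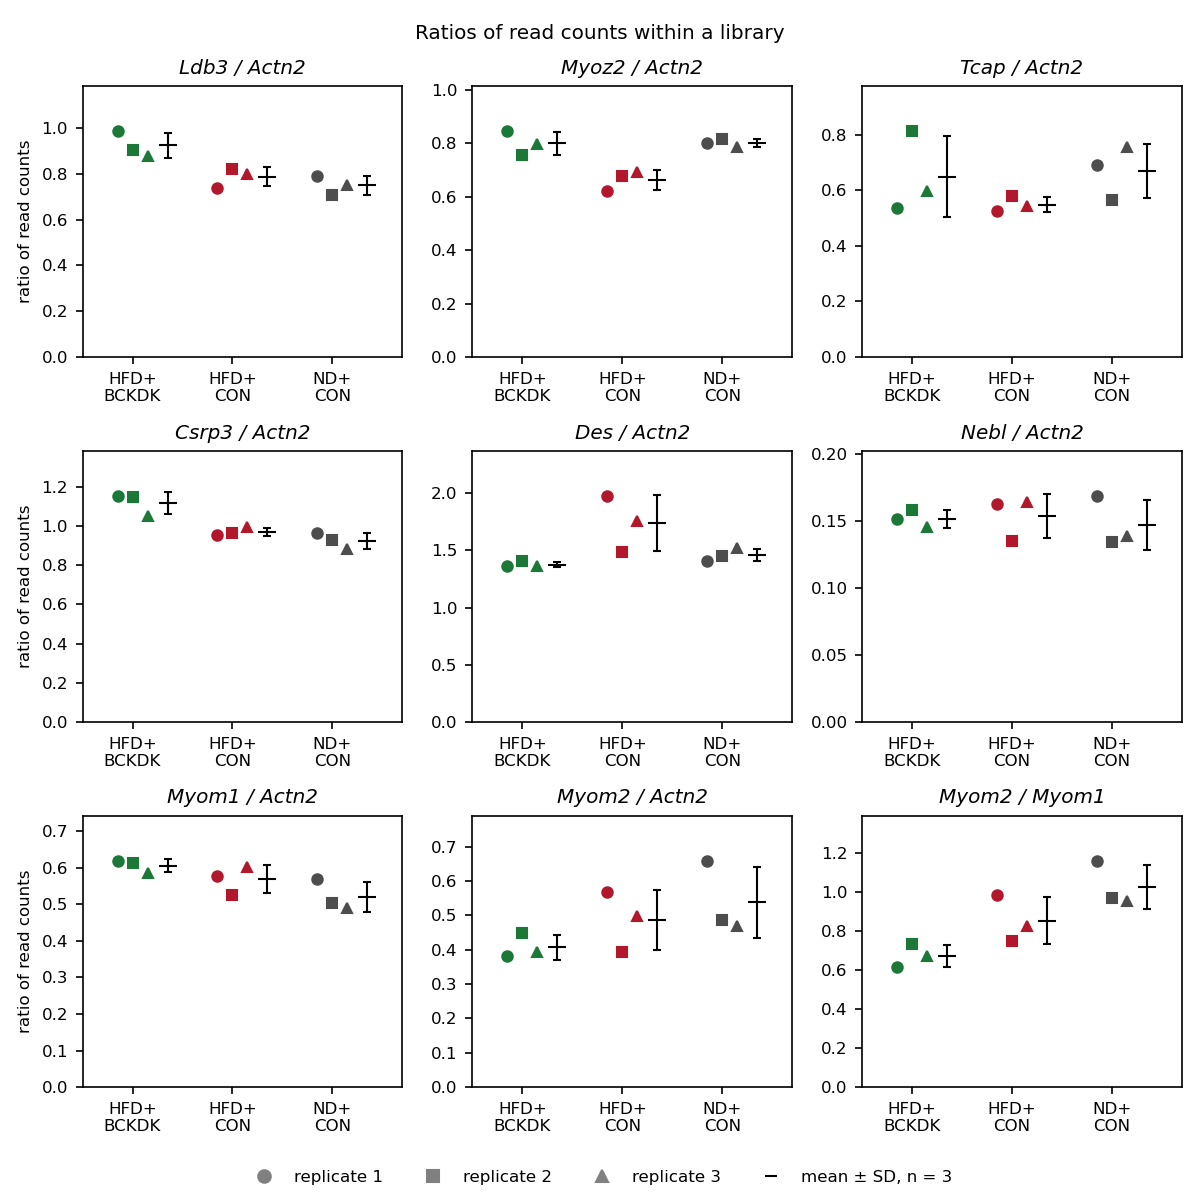
Ratios of read counts within a library for 8 genes over Actn2 and for Myom2 over Myom1, in panels from 0 whose axis labels leave out AAV-, with mean ± SD over 3 libraries. Myoz2 to Actn2 is low in HFD+AAV-CON, Ldb3 and Csrp3 to Actn2 are high in HFD+AAV-BCKDK, and Myom2 to Myom1 is lowest in HFD+AAV-BCKDK.

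Taken as a sum, the 9 genes held a share of reads that depended on the denominator. Of all annotated counts they took 0.538%, 0.601% and 0.587% in HFD+AAV-BCKDK, 0.668%, 0.586% and 0.609% in HFD+AAV-CON, against 0.597%, 0.626% and 0.639% in ND+AAV-CON. These shares overlapped between HFD+AAV-CON and ND+AAV-CON. Of counts in nuclear-encoded genes they took 0.984%, 1.15% and 1.07% in HFD+AAV-BCKDK, 0.903%, 0.974% and 0.912% in HFD+AAV-CON, against 1.10%, 1.11% and 1.10% in ND+AAV-CON, so HFD+AAV-CON was the lowest group. Per 100 counts of 18 cardiomyocyte markers they held 8.88, 10.2 and 10.2 in HFD+AAV-BCKDK, 14.8, 10.04 and 12.2 in HFD+AAV-CON, against 9.53, 9.38 and 9.73 in ND+AAV-CON, and there every HFD+AAV-CON library was above every ND+AAV-CON library. HFD+AAV-CON replicate 1 had the highest value on that measure and the lowest share of mitochondrial RNA.

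**Figure D5:**
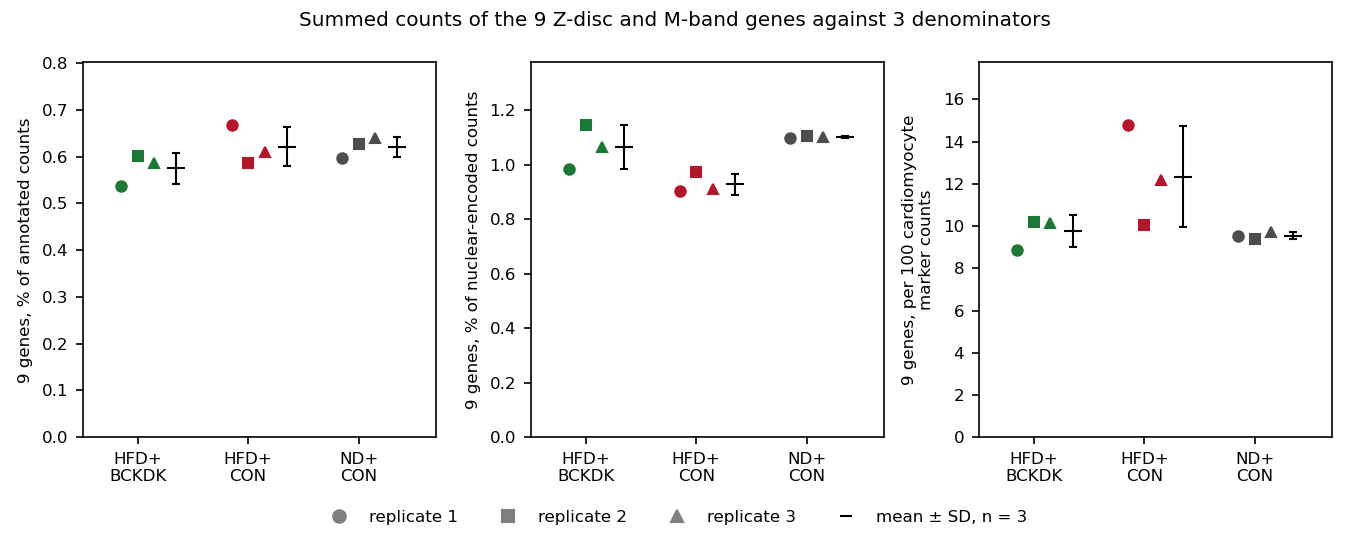
Summed counts of the 9 genes in each library as a percentage of all annotated counts, as a percentage of nuclear-encoded counts, and per 100 counts of 18 cardiomyocyte markers (axis labels leave out AAV-), with mean ± SD over 3 libraries. HFD+AAV-CON overlaps ND+AAV-CON in the first panel, lies below it in the second and above it in the third.

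The markers themselves moved with the groups. Of all genes, 22.7% rose and 20.6% fell with diet under TMM, and 17.3% rose and 20.9% fell with the vector. Under total counts 42.3% rose and 6.60% fell with diet, and 2.81% rose and 48.5% fell with the vector. With TMM scaling 14 of 18 cardiomyocyte markers fell with diet and 12 rose with the vector, with medians of -0.72 and 0.68, and with total counts 11 fell and 7 rose. Their summed level was 62325 to 68503 CPM in HFD+AAV-BCKDK, 31831 to 56873 CPM in HFD+AAV-CON and 68712 to 72762 CPM in ND+AAV-CON. For the diet, the median was -0.35 with TMM and 0.046 with total counts over the members, and -0.72 and -0.38 over these markers. Fibroblast markers rose in 11 of 14 cases with diet and fell in 12 with the vector, summing to 2464 to 2680 CPM in HFD+AAV-BCKDK, 3543 to 6168 CPM in HFD+AAV-CON and 2615 to 2694 CPM in ND+AAV-CON. Macrophage markers rose in 12 of 14 cases with diet, and with the vector 12 fell and 1 rose. They summed to 631 to 811 CPM in HFD+AAV-BCKDK, 2085 to 3387 CPM in HFD+AAV-CON and 781 to 1069 CPM in ND+AAV-CON. With total counts 14 fibroblast and 12 macrophage markers rose with diet, and 13 and 12 fell with the vector. Endothelial markers fell in 10 of 14 cases with diet and rose in 11 with the vector under TMM, and under total counts 5 fell and 1 rose with diet and 0 fell and 3 rose with the vector. Of 13 smooth muscle and pericyte markers 4 fell and 0 rose with diet under TMM, and 3 rose and 0 fell with the vector. Under total counts 2 of them rose and 2 fell with diet, and 1 rose and 5 fell with the vector. The summed atrial markers stood at 111 to 227 CPM in HFD+AAV-BCKDK, 333 to 1524 CPM in HFD+AAV-CON and 139 to 263 CPM in ND+AAV-CON. Of the 7 atrial markers tested, 2 rose and 2 fell with diet under TMM, and 2 rose and 2 fell with the vector. Under total counts 2 rose and 2 fell with diet, and 2 rose and 3 fell with the vector. On the log2 TMM scale the natriuretic peptide gene Nppa rose by 2.51 with diet and fell by 3.12 with the vector. Dkk3 rose by 3.40 and fell by 3.25. Tbx5, also on this list, went the other way, falling by 1.16 with diet and rising with the vector. The part of these shifts in the members' values was not tested.

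Within HFD+AAV-CON the spread of a member depended on the scale. The coefficient of variation of Ldb3 was 19.4% with TMM and 3.31% with total counts, of Myoz2 17.8% and 1.81%, of Csrp3 14.3% and 2.56%, and of Tcap 19.6% and 4.67%. Des and Myom2 went the other way, at 2.58% and 17.0% for Des and 4.94% and 20.9% for Myom2. Tcap was the most variable member in HFD+AAV-BCKDK, at 27.3% with TMM. Profiles over the 9 libraries were compared by the root-mean-square (RMS) difference of log2 CPM (TMM), each gene centred on its own mean. Ldb3 and Csrp3 were the closest pair (RMS 0.0605), followed by Csrp3 and Myom1 (0.0691), and Ldb3 and Myom2 the farthest (0.355). Actn2 lay closest to the mean profile of the 9 (0.0574) and Myom2 farthest (0.227). Among 3678 other well-expressed genes (mean log2 CPM 5 or more), the nearest to that mean profile were Psmb6 (0.0477), a proteasome subunit, Sspn (0.0508) and Sgcb (0.0515), parts of the dystrophin-associated complex, the muscle kinase Dmpk (0.0569) and the natriuretic peptide receptor Npr2 (0.0585). The 9 libraries share tissue and scaling, and likeness is given as a description.

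Other Z-disc genes were called in both directions with diet. The shares of all genes to set beside the list counts are 22.7% rising and 20.6% falling with TMM, and 42.3% rising and 6.60% falling with total counts. Of 26 further structural and scaffold genes 8 rose and 5 fell in HFD+AAV-CON against ND+AAV-CON with TMM (median -0.04), and 14 rose and 1 fell with total counts. Those with the smallest p all rose under both scalings, namely Flnc, the actin cross-linker filamin C, by 1.22 on the log2 TMM scale (SE 0.11), Xirp1, an actin-binding repeat protein, by 1.35 (SE 0.15), Capza1, which caps actin filaments at the Z-disc, by 0.87 (SE 0.11) and Synpo2l by 1.89 (SE 0.30). Of 18 Z-disc linked signalling genes 8 rose and 3 fell with TMM, and 13 rose and 0 fell with total counts. Rcan1, a calcineurin inhibitor, rose by 1.61 (SE 0.17), the kinase Pak1 by 2.35 (SE 0.37), the stretch-responsive Ankrd1 by 1.95 (SE 0.34) and Prkca by 0.68 (SE 0.13). Of 16 M-band and titin-kinase linked genes 1 rose and 6 fell with TMM, and 3 rose and 4 fell with total counts. The titin-binding ubiquitin ligase Trim63 fell by 0.75 (SE 0.12), the myosin light chain kinase Mylk3 by 0.85 (SE 0.15) and the M-band creatine kinase Ckm by 1.12 (SE 0.26) under TMM, and these 3 fell with total counts as well, while Smyd2 (-0.41, SE 0.09) did not.

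In the assembly and turnover list 4 of 18 genes rose and 7 fell with diet under TMM, and 8 rose and 3 fell under total counts. The muscle ubiquitin ligase Fbxo32 fell by 1.21 (SE 0.11) and Klhl31 by 0.86 (SE 0.14), whereas the chaperone Hsp90aa1, which helps to fold myosin, rose by 1.50 (SE 0.15) and the protease Capn1 by 0.62 (SE 0.10). All 4 were called in the same direction with total counts. Among 13 desmin network partners 4 rose and 5 fell with TMM, and 6 rose and 3 fell with total counts. The desmosome genes Pkp2 and Dsc2 fell by 0.73 (SE 0.08) and 1.09 (SE 0.14), and the intermediate filament Vim, which is expressed in mesenchymal cells, rose by 1.19 (SE 0.17), each also with total counts. Of 15 muscle transcription regulators none rose and 7 fell with TMM, and 2 rose and 4 fell with total counts. Gata6 fell by 0.73 (SE 0.10), Tbx5 by 1.16 (SE 0.22) and Esrrg by 0.75 (SE 0.18) under TMM and fell with total counts, and Mef2c, which binds MEF2 sites, fell by 0.69 (SE 0.09) with TMM but was not called with total counts (-0.29, adjusted p = 0.101). Of 12 close relatives of the members 6 rose and 1 fell with TMM, and the non-muscle α-actinins Actn1 and Actn4 rose by 1.10 and 0.40, and also with total counts.

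With the vector, in HFD+AAV-BCKDK against HFD+AAV-CON, 17.3% of all genes rose and 20.9% fell with TMM, and 2.81% rose and 48.5% fell with total counts. Beside these shares, 11 of the 26 further Z-disc genes rose and 2 fell with TMM, and 0 rose and 11 fell with total counts. Capza1 fell under both (-0.62 with TMM, SE 0.11), while Cfl2, the muscle cofilin (0.43), Synpo2 (0.60) and Cavin4 (0.63) rose with TMM only. Of the M-band list 8 of 16 rose with TMM and none fell, among them the methyltransferase Smyd1 (0.53, SE 0.12) and Cmya5 (0.67, SE 0.15), and with total counts 1 rose and 1 fell. Of the signalling list 5 of 18 rose and 8 fell with TMM and 0 rose and 10 fell with total counts. Pak1 (-2.57, SE 0.38), Nfatc1, a calcineurin target factor (-0.76, SE 0.14) and Prkca (-0.54, SE 0.13) fell under both. Of the 15 regulators 7 rose with TMM and none fell, and 2 rose and 2 fell with total counts. Tbx5 rose under both (0.91 with TMM, SE 0.22), and Gata6 (0.47) and Esrrg (0.71) with TMM only. Of the 12 relatives 2 rose and 5 fell with TMM. Actn1 fell by 0.94 and Actn4 by 0.30, and both also with total counts.

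Against ND+AAV-CON, fewer genes of each of these lists were called in HFD+AAV-BCKDK hearts than in the diet or the vector comparison. Flnc was higher by 0.95 (SE 0.11, adjusted p = 0.0052) with TMM and was also called with total counts, as was Hsp90aa1 (1.13, SE 0.15, adjusted p = 0.0091). Dsc2 (-0.96, SE 0.14, adjusted p = 0.0123) and Fbxo32 (-0.62, SE 0.11, adjusted p = 0.0256) were lower under both scalings. With TMM only, Sorbs2 (0.55), Xirp1 (0.70), Ankrd23 (1.05), Rcan1 (1.02), Alpk3 (0.42) and Hspb8 (0.48) rose and Mef2c fell (-0.51). The other Z-disc list gave 4 rises of 26 and the M-band list 1 of 16 with TMM, where 1.18% of all genes rose and 1.27% fell. The signalling list gave 2 rises of 18, and the assembly list 2 rises and 1 fall of 18. The desmin list gave 1 fall of 13, the regulators 1 fall of 15 and the relatives 0 calls of 12. With total counts, where 0.360% of all genes rose and 0.600% fell, 1 of 26 rose in the Z-disc list. In the M-band list none rose and Trim63 fell (-0.55). The assembly list gave 1 rise and 1 fall and the desmin list 1 fall, and the signalling, regulator and relative lists gave 0 calls.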

How the data were processed

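Per the labels' protocols, Trizol was used to extract left ventricular RNA of 9 wild-type mice, and the VAHTS mRNA-seq v2 kit to prepare it for sequencing. The submitters' processing notes name HISAT2 2.0.5 and mm10. How reads were counted, on which annotation and whether by strand is not given in the sources used here. Raw read counts per gene were deposited by the authors, 1 column per library, with no normalization. The table held 26178 entries, of which 4142 unnamed loci, holding 1.02% to 6.01% of counts, stayed out of library sizes and tests. The design text calls the 3 libraries of a group biological replicates. Whether HFD+AAV-CON replicate 3 is an independent sample cannot be told from the counts. Replicates differed by more than sampling noise in every pair (chi-square per degree of freedom at least 15.4), and each was counted once.

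The tests used edgeR 4.0.16 under R 4.3.3 (filterByExpr, TMM, a quasi-likelihood fit over all 9 libraries with 6 residual degrees of freedom, Benjamini-Hochberg adjustment over 14160 genes at 0.05). The same fit with total-count scaling is given beside it. The common biological coefficient of variation was 18.6%. Standard errors (SE) come from the F statistic, and the 95% intervals from the moderated degrees of freedom. CPM and TPM were computed from the counts, TPM with GENCODE exon lengths on GRCm38 (the build called mm10) for 22022 of 22036 genes. Ratios were tested with exact permutation tests in SciPy 1.17.1. The fits with TMM were also run on simulated counts in which a small set of genes changed, equally many up and down. That setting has no broad shift between groups, so it does not bear on the choice between TMM and total counts.

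The members and the other gene lists were chosen with earlier results of these data known. The text names all members, Bckdk, up to 4 genes of smallest p per list and the 5 genes of most similar profile, apart from a gene that is not reported here. Single skeletal and atrial marker genes were named after their values were seen. Alternatives tried were RLE, upper-quartile and cardiomyocyte marker scaling, other filters and gene sets, DESeq2 1.42.0, limma-voom 3.58.1, robust dispersion, a replicate block, 2 groups alone and leaving out each library. Added after seeing the data were total counts of nuclear genes and total-count scaling with each library left out.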

Additional observations from a re-analysis of the deposited data

How the results depend on the processing

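Under TMM 6 members were called in the diet comparison (HFD+AAV-CON against ND+AAV-CON). In the vector comparison (HFD+AAV-BCKDK against HFD+AAV-CON) 5 were called. None, 0 of 9, was called in the combined comparison (HFD+AAV-BCKDK against ND+AAV-CON). Total-count scaling gave 1, 1 and 0, cardiomyocyte marker scaling 5 (all higher in HFD+AAV-CON, as were 8848 of 14160 genes), 3 (all lower in HFD+AAV-BCKDK, as were 8149 genes) and 0, and DESeq2 8, 7 and 1, where it called 6530, 5992 and 902 of all genes. Leaving out 1 library gave 3 to 8, 1 to 7 and 0 with TMM, and 0 to 2, 0 to 3 and 0 to 1 with total counts. The remaining alternatives gave 4 to 8, 4 to 5 and 0. Why the scalings differ was not tested.

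In the diet comparison the sign changed with total counts for Ldb3 (0.048), Csrp3 (0.046), Des (0.23), Nebl (0.047) and Myom1 (0.11), and with marker scaling for Actn2 (0.34), Ldb3 (0.40), Myoz2 (0.063), Tcap (0.045), Csrp3 (0.41), Des (0.61), Nebl (0.42), Myom1 (0.48) and Myom2 (0.23). In the vector comparison it changed with total counts for Actn2 (-0.13), Nebl (-0.15), Myom1 (-0.043) and Myom2 (-0.39), with nuclear totals for Myom2 (-0.068), and with marker scaling for Actn2 (-0.36), Ldb3 (-0.12), Myoz2 (-0.083), Tcap (-0.10), Csrp3 (-0.15), Nebl (-0.39), Myom1 (-0.27) and Myom2 (-0.64). In the combined comparison Nebl changed sign with marker scaling (0.030). Without 1 library, Des ranged from -0.063 to 0.036 and Myom2 from -0.035 to 0.16 in the vector comparison, and Tcap from -0.37 to 0.023 and Nebl from -0.12 to 0.016 in the combined comparison. With total-count scaling and ND+AAV-CON replicate 2 or 3 or HFD+AAV-CON replicate 3 left out, no member, Myoz2 included, was called in the diet comparison.

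With 1 library left out, the diet call of Actn2 did not hold without ND+AAV-CON replicate 2 (where its adjusted p was 0.0917) or 3 (0.0669) or HFD+AAV-CON replicate 1 (0.0545) or 3 (0.095), that of Tcap without ND+AAV-CON replicate 1 (0.0589) or 3 (0.0804) or HFD+AAV-CON replicate 1 (0.0704) or 3 (0.0855), and that of Nebl without ND+AAV-CON replicate 1 (0.0523). The vector call of Ldb3 was lost without HFD+AAV-CON replicate 3 (0.0565) or HFD+AAV-BCKDK replicate 1 (0.0506) or 2 (0.0538), that of Csrp3 without HFD+AAV-CON replicate 3 (0.0505) or HFD+AAV-BCKDK replicate 2 (0.0541), that of Myom1 without HFD+AAV-BCKDK replicate 2 (0.0571), and that of Nebl without HFD+AAV-CON replicate 1 (0.0654) or 3 (0.0676) or HFD+AAV-BCKDK replicate 2 (0.111) or 3 (0.0567).

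Correlations of the deviations of same-numbered libraries ran from -0.275 to 0.252, and those of differently numbered libraries from -0.283 to 0.301. Whether same-numbered mice shared a batch or anything else beyond the number cannot be told from this. With the replicate block 6, 4 and 0 members were called, and 107 of all genes instead of 347 in the combined comparison. In that comparison total-count scaling called 136 genes, marker scaling 46, the 2 groups alone 873, and leaving out 1 library 43 to 744. In the vector comparison marker scaling called 8258 genes instead of 5410 and leaving out 1 library 2847 to 6978, and in the diet comparison leaving out HFD+AAV-CON replicate 3 called 4050 instead of 6134. With cardiomyocyte markers in place of Actn2 as denominator, the log2 differences of the 8 ratios were 0.049 to 0.57 in the diet comparison. In the vector comparison they were -0.68 to -0.078, and in the combined comparison -0.41 to 0.28. The 9 members together had at least 178267 reads in each library, and 3 mice per group limit the precision.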
